A study of Homo sapiens with 4 samples.

Results

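The genes described here are interferon-stimulated genes and genes that sense foreign or misplaced nucleic acids. They were chosen by name, as a list of 43 gene symbols matched to the symbols in the deposited expression table. Of these, 40 matched 44 rows among 16151 transcript rows, and IFIT1, IFI44L and USP18 matched none and are not analysed here. The cells were Jurkat, an established human line of leukemic T lymphocytes, with 3 libraries of cells given lentiviral short hairpin RNAs (shRNAs) against SLEAR (SLEAR shRNA-1, -2 and -3) and 1 Control library, which carried a control shRNA according to the series' design text. Both groups were therefore hairpin-bearing, and no library of cells without a hairpin was analysed here. The series title connects SLEAR with systemic lupus erythematosus and with apoptosis. The numbers 1 to 3 are not explained as separate hairpins or as repeats, nor are separate cultures stated. Any p-value here thus measures the spread between 3 libraries, which may be technical, with the single Control assumed to vary in the same way.

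Cells detect viral or misplaced RNA with the cytosolic helicases RIG-I (gene DDX58) and MDA5 (gene IFIH1), which signal through the mitochondrial adaptor MAVS to the transcription factors IRF3 and IRF7 and so to the type I interferon genes. Secreted interferon binds the receptor chains IFNAR1 and IFNAR2, whose kinases JAK1 and TYK2 activate STAT2. Together with IRF9, STAT2 takes part in a complex that binds the interferon-stimulated response element (ISRE) in the promoters of many genes, among them genes whose products block viral entry, translation or replication. A raised level of such transcripts in blood cells is a well-known feature of systemic lupus erythematosus.

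Libraries were made by MAPS (Multiplex Analysis of PolyA-linked Sequences), which reads the 3' ends of polyadenylated RNA, and levels are in RPM, reads scaled to the size of the library, as deposited. The spacing of the values put the depth at about 7048620, 7524253 and 4814165 reads in libraries SLEAR shRNA-1, -2 and -3 and 8384890 reads in Control, so that 3 reads, the limit a value of 0 allows by counting alone, correspond to between 0.358 and 0.623 RPM. SLEAR shRNA-3 stood apart: 6941 of 16328 rows (before identical rows were merged) were at 0 there, against 2641 and 2314 for SLEAR shRNA-1 and -2 and 2984 for Control. Among rows with a mean of 4 to 8 RPM in the other libraries, 27.2% were at 0 in SLEAR shRNA-3. A 0 in that library is therefore weak evidence of a low level, and differences are also given without that library where it moved them strongly. T cell markers fitted the labelled line, with CD3D, a chain of the T cell receptor complex, at 1590, 1679 and 1966 RPM in libraries SLEAR shRNA-1, -2 and -3 and 1580 RPM in Control, and 10 of 11 T lineage markers reaching 1 RPM, CD3G being the exception. The myeloid marker ITGAM was at 0 in every library. FCER1G, from the same list, was at 6.81, 3.85 and 13.7 RPM in libraries SLEAR shRNA-1, -2 and -3 and 10.5 RPM in Control. The B cell markers with a row summed to 21.99, 19.7 and 23.1 RPM across the SLEAR shRNA libraries and 12.05 RPM in Control, most of it CD79A; the part of these cells in any result was not tested. The myeloid, epithelial and fibroblast lists summed to between 6.38 and 13.7, 0 and 3.19, and 0 and 1.42 RPM across the SLEAR shRNA libraries, and to 12.5, 1.31 and 2.15 RPM in Control. Most of the myeloid sum was FCER1G in every library. These lists had a row for 6 of 8, 2 of 5 and 1 of 5 genes, so the last 2 sums rest on few genes. No value for SLEAR itself is analysed here, so how far the hairpins lowered it is unchecked. In bulk RNA, fewer cells with a transcript and less of it per cell cannot be told apart.

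What many members share, apart from the list itself, is a motif of the ISRE in their promoters. The core of that element was searched as GAAA followed, after a gap of 2 bases, by a second GAAA, on both strands, from 250 bases before to 50 after each start site in RefSeq's promoter table (build GRCh38.p14). Of the 32 members in that table, 19 (59.4%) held the motif in at least 1 promoter, against 4.38% of all 27305 genes in it. Of 6 members in the promoter table that were higher than Control in all 3 SLEAR shRNA libraries, 3 held it. Among members in the promoter table that were lower in all 3, 6 of 9 held it, so the letters were found on both sides. Windows of at most 34 bases that end before the start site are shown for members on each side and for ISG15, whose libraries fell on both sides of Control, with the motif in capitals. They are written along the gene's strand, so a motif on the opposite strand reads TTTC, a gap, TTTC. OAS3 (chr12:112938450-112938473, plus strand), IFITM1 (chr11:313988-314021, plus) and BST2 (chr19:17405733-17405766, minus) were higher, and IFIH1 (chr2:162318685-162318717, minus), HERC5 (chr4:88457033-88457066, plus) and IFI44 (chr1:78649759-78649792, plus) were lower. The ISG15 window is at chr1:1013378-1013411 on the plus strand. BST2 reached 1 RPM only in SLEAR shRNA libraries, so its side was partly set by the limit of 1 RPM used for testing.
OAS3: agagccgggcggGAAAACGAAAcc
IFITM1: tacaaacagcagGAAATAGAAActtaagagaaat
BST2: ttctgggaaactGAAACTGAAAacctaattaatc
IFIH1: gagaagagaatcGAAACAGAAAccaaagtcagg
HERC5: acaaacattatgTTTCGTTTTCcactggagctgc
IFI44: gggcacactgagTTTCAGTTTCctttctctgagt
ISG15: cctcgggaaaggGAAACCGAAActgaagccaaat

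The rows of part of the interferon program were silent or close to it in all 4 libraries. Silent here means under 1 RPM in every library, and this held for DDX58, IRF2, OASL and IFIT2. It describes the rows only, because an unexpressed gene and a 3' end missed by its row cannot be told apart here. The row of CD3G, a T lineage marker, was at 0.24 RPM in Control, beside 1580 RPM for CD3D. OASL, a catalytically inactive relative of the oligoadenylate synthetases, was at 0 RPM throughout. IFIT2, which binds RNA and restrains translation, was at 0, 0.399 and 0 RPM in libraries SLEAR shRNA-1, -2 and -3 and 0 RPM in Control, the largest of these being 3 reads. IRF2, a transcription factor best known as an antagonist of IRF1, did not exceed 1 read in any library. DDX58 had 7, 4 and 0 reads in libraries SLEAR shRNA-1, -2 and -3 and 0 reads in Control. A further 20 rows averaged under 10 RPM, and 18 rows averaged at least 10 RPM. All IFIT family genes with a row were below 10 RPM, while both MX genes, IFITM1 and IFITM2 were above it.

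**Figure D1:**
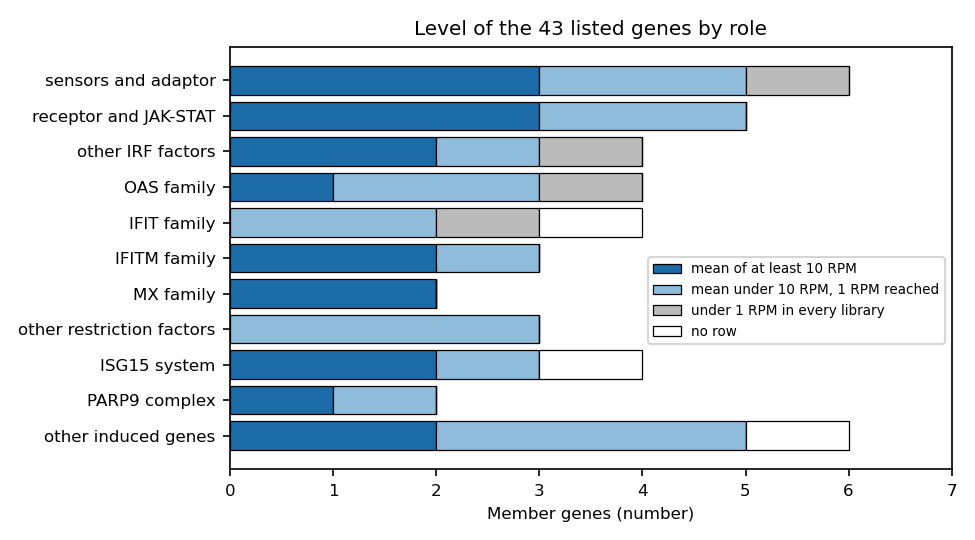
Number of the 43 listed genes (x axis) in each role group (y axis) by the level of their highest row: a mean of at least 10 RPM, a lower mean with 1 RPM reached in at least 1 library, under 1 RPM in every library, or no row. The IFIT family and the group of RSAD2, BST2 and TRIM22 have no gene at 10 RPM or more, and the silent genes are DDX58, IRF2, OASL and IFIT2.

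Setting SLEAR shRNA beside Control asks which of these transcripts differ when SLEAR is targeted. No member passed the test. The limma-trend test on log2(RPM + 1), with Benjamini-Hochberg adjustment over the 12350 rows that reached 1 RPM in at least 1 library, called 0 of 38 member rows (36 genes), against 0% of all rows. The smallest adjusted p among the members was 0.993. At an unadjusted p under 0.05 were 0 member rows higher and 1 lower, RSAD2, which reached 1 RPM only in Control and was at 0 in all 3 SLEAR shRNA libraries, so that its p has no spread of its own behind it. Over all rows 92 were higher and 239 lower by an unadjusted p below 0.05, and limma-voom on the estimated reads called 0 rows as well, with 69 and 222. With 3 libraries against 1, an exact permutation test of a single gene could not give a one-sided p below 0.25. Standard errors (SE) below are from the limma-trend fit, and a log2 difference on this scale understates the change of low rows.

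With the values as deposited, counts of direction were close to those of the whole table. Of the 38 rows, 8 were higher than Control in all 3 SLEAR shRNA libraries, a share of 21.1% against 17.8% of all rows tested. A further 10 were lower in all 3, a share of 26.3% against 28.6%. Of these 10, SLEAR shRNA-3 had 0 reads for RSAD2, IFITM3, IFI44 and IFIT3. With SLEAR shRNA-3 left out, 15 (39.5%) lay above Control and 14 (36.8%) below it in both remaining libraries, beside 35.2% and 41% of all rows. Of the 38 rows, 8 reached 1 RPM in 1 group only, so the side of these rows was partly set by the filter. In SLEAR shRNA alone there were 6, namely BST2, IFI35, IFI27, TRIM22, OAS2 and the lower row of IFNAR2. In Control alone there were 2, IFIT3 and RSAD2. All these differences share the 1 Control library.

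Among the sensors, IFIH1 (MDA5), which recognises long double-stranded RNA, had 3.55, 3.06 and 0.831 RPM in libraries SLEAR shRNA-1, -2 and -3, while Control had 7.75 RPM. These values rest on 25, 23 and 4 reads and on 65 reads in Control. All 3 SLEAR shRNA libraries lay below Control, with SLEAR shRNA-3 lowest, and the log2 difference was -1.44 ± 0.89 (SE; limma-trend adjusted p = 0.993) with all libraries and -1.03 without SLEAR shRNA-3. ADAR, which edits adenosine to inosine in double-stranded RNA and so hides cellular RNA from MDA5, had 73.9, 87.5 and 70.6 RPM across the SLEAR shRNA libraries and 89.4 RPM in Control. Its log2 difference was -0.21 ± 0.24 (SE), and SLEAR shRNA-2 was nearly level with Control. With columns scaled by a trimmed mean of log ratios, SLEAR shRNA-2 was no longer below Control for ADAR.

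The other sensing genes lay on both sides of Control. MAVS had 16.03, 12.9 and 27 RPM in libraries SLEAR shRNA-1, -2 and -3 and 13 RPM in Control, so that SLEAR shRNA-3 was high and SLEAR shRNA-2 level (slightly above Control under the trimmed-mean scaling). Its log2 difference was 0.42 ± 0.56 (SE) with all libraries and 0.14 without SLEAR shRNA-3. EIF2AK2, the kinase PKR, which stops translation when it binds double-stranded RNA, had 5.67, 2.79 and 0 RPM across the SLEAR shRNA libraries, against 2.27 RPM in Control. SLEAR shRNA-1 was above Control and SLEAR shRNA-3 at 0, and the log2 difference of -0.15 ± 1.27 (SE) became 0.62 without SLEAR shRNA-3. IFI16, a sensor of DNA, had 13.8, 15.7 and 10.8 RPM across the SLEAR shRNA libraries and 13.7 RPM in Control, within the range of the SLEAR shRNA libraries. Of the 5 sensing rows tested, 0 were higher and 2 (IFIH1 and, except under the trimmed-mean scaling, ADAR) lower in all 3 libraries, beside 17.8% and 28.6% of all rows.

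IFNAR1 and the higher row of IFNAR2 were above Control in every SLEAR shRNA library, as were 17.8% of all rows tested. IFNAR1 had 34.9, 27.1 and 61.5 RPM in libraries SLEAR shRNA-1, -2 and -3, a mean of 41.2 ± 18.02 RPM (SD, n = 3), and 23.7 RPM in Control. The single Control value lay below all 3 libraries, SLEAR shRNA-3 being farthest away, and the log2 difference was 0.69 ± 0.53 (SE; limma-trend adjusted p = 0.993). It was 0.36 without SLEAR shRNA-3. IFNAR2 was measured in 2 rows of different transcript ends. Its higher row had 15.3, 9.97 and 11.8 RPM across the SLEAR shRNA libraries, against 8.59 RPM in Control, a log2 difference of 0.46 ± 0.53 (SE). Its lower row had 1.84, 0.133 and 5.40 RPM, against 0.477 RPM in Control, with SLEAR shRNA-2 below Control.

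Downstream of the receptor there was no common direction. JAK1, the kinase bound to IFNAR2, had 3.26, 3.99 and 3.53 RPM in libraries SLEAR shRNA-1, -2 and -3 and 3.34 RPM in Control, with Control inside the range of the SLEAR shRNA libraries. Under the trimmed-mean scaling every SLEAR shRNA library was above Control for JAK1. STAT2, which joins the factor that binds the ISRE, had 19.3, 22.5 and 16.6 RPM across the SLEAR shRNA libraries and 23.3 RPM in Control, a log2 difference of -0.26 ± 0.38 (SE) that was -0.15 without SLEAR shRNA-3. SLEAR shRNA-2 was close to Control, and under the trimmed-mean scaling it was no longer below it. IRF9, the DNA-binding part of the same factor, had 5.96, 3.85 and 13.1 RPM, against 7.75 RPM in Control, with SLEAR shRNA-3 on the other side of Control from SLEAR shRNA-1 and -2.

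Among the other interferon regulatory factors, IRF1, an activator that is itself induced by interferon, had nearly equal values across SLEAR shRNA libraries. It had 22.1, 23.5 and 22.2 RPM in libraries SLEAR shRNA-1, -2 and -3, a mean of 22.6 ± 0.78 RPM (SD, n = 3), and 30.1 RPM in Control. Control lay above all 3 libraries, and the log2 difference of -0.39 ± 0.32 (SE) did not pass (limma-trend adjusted p = 0.993). IRF3, the constitutive factor activated below MAVS, had 31.8, 35.2 and 57.3 RPM across the SLEAR shRNA libraries, against 28.1 RPM in Control, a log2 difference of 0.49 ± 0.43 (SE) that was 0.24 without SLEAR shRNA-3. IRF7, the inducible factor of the same step, had values far apart, with 12.2, 15.9 and 0.623 RPM, against 6.56 RPM in Control. SLEAR shRNA-1 and -2 were above Control, and SLEAR shRNA-3, at 3 reads, below it. Its log2 difference was -0.08 ± 1.57 (SE) with all libraries and 0.98 without SLEAR shRNA-3.

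**Figure D2:**
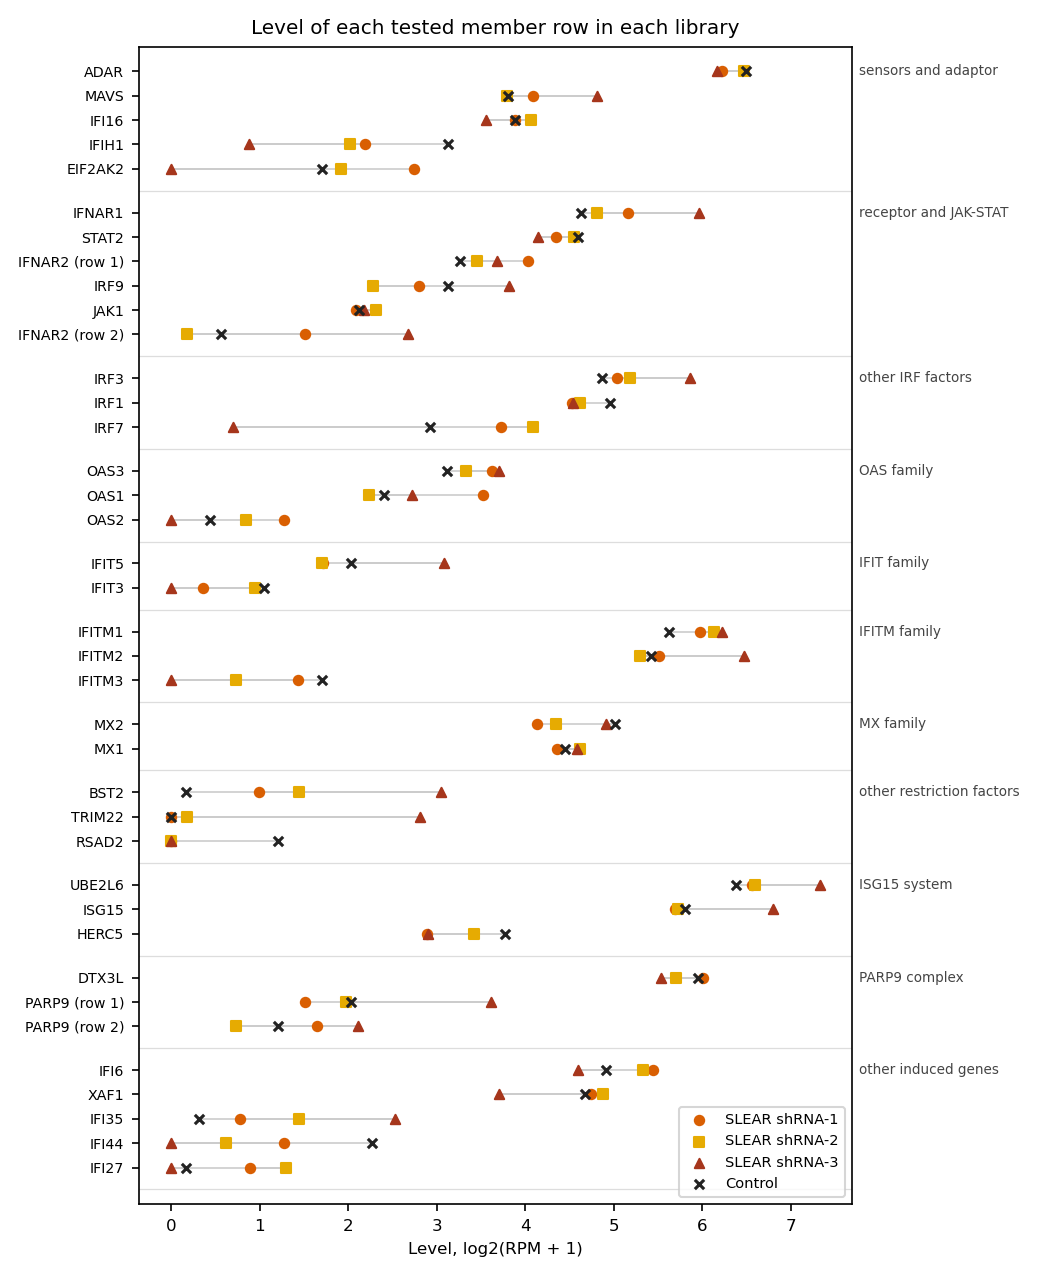
Level of each of the 38 tested member rows as log2(RPM + 1) (x axis) in libraries SLEAR shRNA-1, -2 and -3 and in Control, grouped by role and ordered by mean level within a role. SLEAR shRNA-3 is often the outermost point, as for ISG15 at 110.3 RPM and IRF7 at 0.623 RPM, while IRF1, STAT2, MX1 and JAK1 hold all libraries within a narrow range.

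Turning to the effectors, the oligoadenylate synthetases make the messenger that activates RNase L when they meet double-stranded RNA. OAS3, which favours long double-stranded RNA, had 11.3, 9.04 and 12.05 RPM in libraries SLEAR shRNA-1, -2 and -3, while Control had 7.63 RPM. All 3 libraries were above Control, and the log2 difference was 0.44 ± 0.54 (SE). OAS1 had 10.5, 3.72 and 5.61 RPM in its higher row, against 4.29 RPM in Control, with SLEAR shRNA-2 below Control. A second row of OAS1 did not exceed 0.596 RPM, its value in Control. OAS2 reached 1 RPM only in SLEAR shRNA-1, at 1.42 RPM, and a second row of it stayed at or under 0.426 RPM.

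The IFIT proteins bind viral RNA ends, and the transcripts of the IFIT genes with a row were low here. IFIT5 had 2.27, 2.26 and 7.48 RPM in libraries SLEAR shRNA-1, -2 and -3 and 3.10 RPM in Control. SLEAR shRNA-3 was above Control and the other SLEAR shRNA libraries below it. IFIT3 had 2, 7 and 0 reads across the SLEAR shRNA libraries and 9 reads in Control, too few to describe a difference.

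The IFITM proteins sit in membranes and hinder the fusion of viruses. IFITM1 had 61.7, 69.0 and 73.5 RPM in libraries SLEAR shRNA-1, -2 and -3, a mean of 68.1 ± 5.96 RPM (SD, n = 3), and 48.3 RPM in Control. Control was below all 3 libraries, and the log2 difference of 0.48 ± 0.24 (SE) had an unadjusted p of 0.104 by limma-trend (adjusted p = 0.993). It lay between 0.43 and 0.55 when any 1 SLEAR shRNA library was left out. IFITM2 had 44.5, 38.3 and 88.1 RPM across the SLEAR shRNA libraries, against 41.9 RPM in Control, and only SLEAR shRNA-3 stood off. Its log2 difference was 0.34 ± 0.54 (SE) with all libraries and -0.019 without SLEAR shRNA-3. IFITM3 had 1.70, 0.664 and 0 RPM, against 2.27 RPM in Control, which is at most 19 reads in a library, and its log2 difference of -0.98 ± 0.77 (SE) was -0.62 without SLEAR shRNA-3. These genes are near-copies and neighbours. In GENCODE 29, 9.09% of the 36-base words in the last 200 bases of IFITM2 and of IFITM3 also occur in the other gene, and all of those of IFITM1 also occur in an annotated transcript of IFITM2. No source used here says how shared reads were divided, so the IFITM values are uncertain.

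MX1 and MX2 are dynamin-like GTPases that block incoming viruses. MX1 had 19.6, 23.5 and 23.1 RPM in libraries SLEAR shRNA-1, -2 and -3 and 20.8 RPM in Control, with Control inside the range of the SLEAR shRNA libraries. MX2 had 16.6, 19.4 and 29.1 RPM in libraries SLEAR shRNA-1, -2 and -3, while Control had 31.4 RPM, on 117, 146 and 140 reads and on 263 reads in Control. All 3 libraries were below Control, SLEAR shRNA-3 only slightly, and the log2 difference was -0.55 ± 0.45 (SE; limma-trend adjusted p = 0.993). MX2 was the only member that passed in any fit. Without SLEAR shRNA-3 and among the 4851 rows averaging 4 or more on the log2 scale, it fell by 0.77 ± 0.28 (SE) on the log2 scale (limma-trend adjusted p = 0.0422). That fit called 7.11% of rows higher and 7.26% lower. It held 15 member rows, of which 0 were called higher and 1 lower (6.67%), so the members' share was near that of all rows.

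The remaining restriction factors were near the detection limit in Control. RSAD2, or viperin, which makes a chain-terminating nucleotide, was at 0 RPM in all 3 SLEAR shRNA libraries and at 1.31 RPM, or 11 reads, in Control. The Control value, taken as exact, is 3.08-fold the limit of 3 reads in SLEAR shRNA-1 and 3.29-fold that in SLEAR shRNA-2. The counting error of the 11 Control reads is left out, so these ratios are not lower bounds. RSAD2 was also tested only because Control reached 1 RPM, so its side carries no weight. No ratio is given for SLEAR shRNA-3, where 62.8% of rows with a mean of 1 to 2 RPM in the other libraries were at 0. BST2, or tetherin, which holds budding virions at the cell surface, had 0.993, 1.73 and 7.27 RPM in libraries SLEAR shRNA-1, -2 and -3, while Control had 0.119 RPM. These are 7, 13 and 35 reads and 1 read in Control. All 3 libraries were above Control, and the log2 difference of 1.67 ± 1.05 (SE) did not pass and was 1.06 without SLEAR shRNA-3. BST2 was tested only because SLEAR shRNA libraries reached 1 RPM, so its side carries no weight. TRIM22, a ubiquitin ligase, was detected almost solely in SLEAR shRNA-3, at 6.02 RPM on 29 reads. It had 0 and 1 reads in SLEAR shRNA-1 and -2 and 0 reads in Control. Its row carries the symbol SHISA9 as well, after rows with identical values were merged together with their symbols. Whether SHISA9 was in the deposited row or came from that merging was not checked.

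ISG15 is a ubiquitin-like protein that is joined to other proteins by the conjugating enzyme UBE2L6 and the ligase HERC5 and removed by USP18. ISG15 had 50.5, 51.8 and 110.3 RPM in libraries SLEAR shRNA-1, -2 and -3, while Control had 55.1 RPM. SLEAR shRNA-1 and -2 were slightly below Control, and SLEAR shRNA-3 was far above it. Its log2 difference was 0.26 ± 0.53 (SE) with all libraries and -0.10 without SLEAR shRNA-3. UBE2L6 had 93.5, 95.7 and 159.5 RPM across the SLEAR shRNA libraries, against 82.2 RPM in Control, on at least 659 reads in every library. All 3 were above Control, with SLEAR shRNA-3 farthest, and the log2 difference of 0.45 ± 0.38 (SE) was 0.20 without SLEAR shRNA-3. HERC5 went the other way, with 6.38, 9.70 and 6.44 RPM, against 12.6 RPM in Control, a log2 difference of -0.70 ± 0.61 (SE). UBE2L6 and HERC5 lay on opposite sides of Control in every SLEAR shRNA library, and neither difference passed. Of all rows tested, 17.8% were higher and 28.6% lower in all 3 libraries, so such a pair is not unusual. No conclusion about the pathway is drawn from it.

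PARP9 and the ubiquitin ligase DTX3L form a complex that acts on histones and takes part in interferon responses. DTX3L had 63.1, 51.2 and 45.3 RPM in libraries SLEAR shRNA-1, -2 and -3, while Control had 61.1 RPM, with SLEAR shRNA-1 just above it and below it once columns were scaled to their sums. PARP9, in its higher row, had 1.84, 2.92 and 11.2 RPM, against 3.10 RPM in Control, and only SLEAR shRNA-3 was above. In its lower row it had 2.13, 0.664 and 3.32 RPM, against 1.31 RPM in Control.

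Among the other interferon-induced genes, IFI6, a mitochondrial protein that opposes apoptosis, had 42.4, 39.3 and 23.3 RPM in libraries SLEAR shRNA-1, -2 and -3, while Control had 29.1 RPM. SLEAR shRNA-1 and -2 were above Control and SLEAR shRNA-3 below it, and the log2 difference was 0.21 ± 0.45 (SE) with all libraries and 0.48 without SLEAR shRNA-3. XAF1, which binds the inhibitor of apoptosis XIAP and favours cell death, had 25.8, 28.3 and 12.05 RPM across the SLEAR shRNA libraries, against 24.4 RPM in Control. Again SLEAR shRNA-3 alone was below, and the log2 difference of -0.23 ± 0.60 (SE) became 0.14 without it. IFI44 had 1.42, 0.532 and 0 RPM, against 3.82 RPM in Control, on 10, 4 and 0 reads and on 32 reads in Control. All 3 libraries were below Control, and the log2 difference was -1.64 ± 0.74 (SE; limma-trend unadjusted p = 0.0853) with all libraries and -1.32 without SLEAR shRNA-3. IFI35 had 0.709, 1.73 and 4.78 RPM, against 0.238 RPM in Control, all 3 above it on at most 23 reads. Its log2 difference of 1.28 ± 0.91 (SE) was 0.80 without SLEAR shRNA-3. IFI35 was tested only because SLEAR shRNA libraries reached 1 RPM, so its side carries no weight. IFI27 reached 1 RPM only in SLEAR shRNA-2, at 1.46 RPM.

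**Figure D3:**
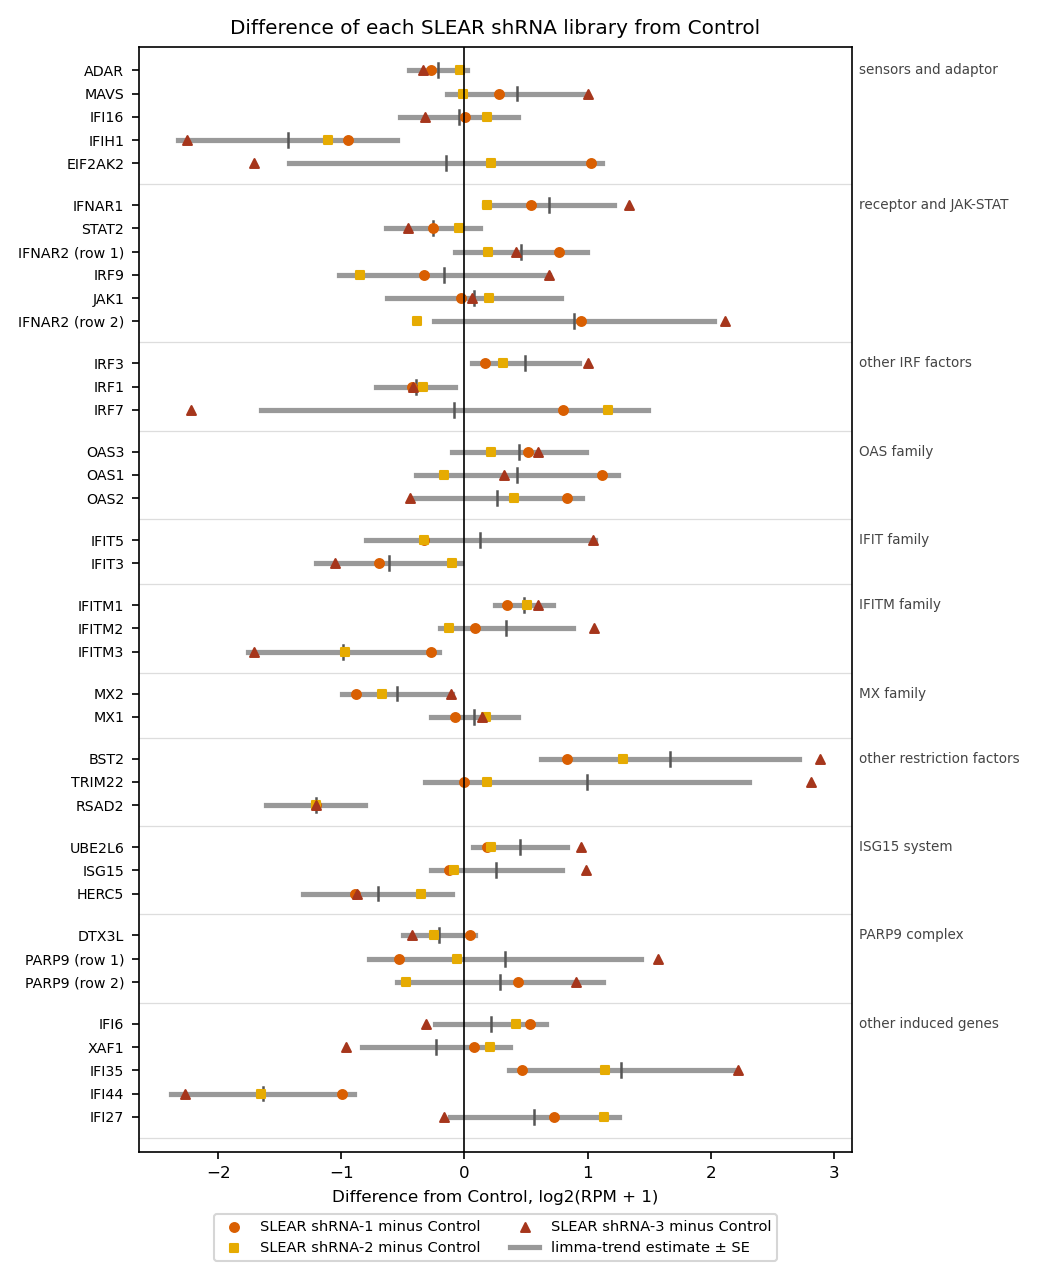
Difference of SLEAR shRNA-1, -2 and -3 from Control in log2(RPM + 1) (x axis) for each tested member row, with the limma-trend estimate and its SE as a bar. No estimate passed the test. IFITM1 (0.48 ± 0.24) and IRF1 (-0.39 ± 0.32) have all 3 libraries close together, while BST2, TRIM22, IRF7 and EIF2AK2, among others, are spread over more than 2 log2 units.

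Single libraries were also set beside Control, by fold in RPM + 1. For SLEAR shRNA-1, 2 rows (OAS1 and EIF2AK2) were at least 2-fold higher than Control and 1 (RSAD2) at least 2-fold lower, or 5.26% and 2.63%, against 5.66% and 7.67% of all rows tested. In SLEAR shRNA-2, 4 rows (BST2, IFI35, IFI27 and IRF7) were at least 2-fold higher and 3 (IFI44, RSAD2 and IFIH1) at least 2-fold lower, or 10.5% and 7.89%, against 5.22% and 7.17%. In SLEAR shRNA-3, 10 rows were at least 2-fold higher and 7 at least 2-fold lower, or 26.3% and 18.4%, against 13% and 28.4%. The 10 were BST2, TRIM22, IFI35, PARP9, IFNAR1, IFITM2, IFIT5, MAVS, IRF3 and the lower row of IFNAR2. In these single-library counts, BST2, IFI35, IFI27, TRIM22 and the lower row of IFNAR2 were tested only through SLEAR shRNA. RSAD2 was tested only through Control, so the filter favoured the side of all these rows. The median log2 difference of the members was 0.06, -0.02 and 0.10 in libraries SLEAR shRNA-1, -2 and -3, beside -0.02, -0.04 and -0.23 over all rows tested. From the limma-trend fit it was 0.17, beside -0.11 over all rows. Member rows at 0 in SLEAR shRNA-3 numbered 7 of 38 (18.4%), beside 25.7% of all rows tested. The part of that library's depth and dropout in these shares was not tested.

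Members with a mean of at least 10 RPM stayed close to Control about as often as the rows of the table at that level. All 18 such rows were within 2-fold of Control in SLEAR shRNA-1 and -2, as were 94.9% of the 5853 rows of the table at that level. In all 3 libraries 14 of the 18 (77.8%) were, beside 75.3% of the table. The exceptions were IFNAR1, IFITM2, MAVS and IRF3, each at least 2-fold higher in SLEAR shRNA-3 alone.

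**Figure D4:**
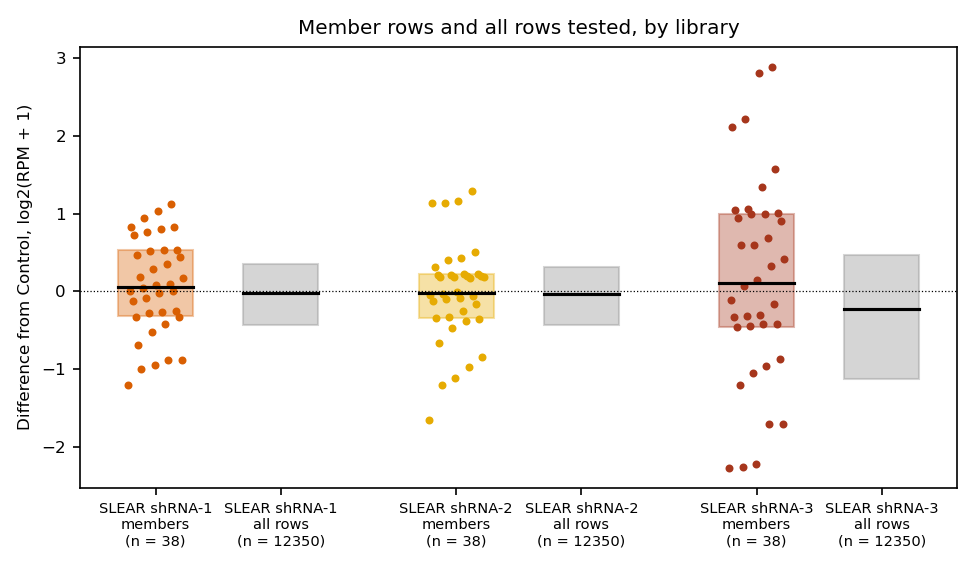
Difference from Control in log2(RPM + 1) (y axis) in each SLEAR shRNA library for the 38 member rows (points) and for all 12350 rows tested, with boxes from the lower to the upper quartile and a black line at the median. The medians of the members, 0.06, -0.02 and 0.10, lie within the boxes of all rows, and both spreads are widest in SLEAR shRNA-3.

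No gene of a wider pathway list passed the test. This list of 81 genes, of nucleic acid sensing, interferon signalling and interferon response, none of them members, gave 71 tested rows of 62 genes. None passed by limma-trend, with 1 row at an unadjusted p under 0.05, that of LAMP3. In all 3 SLEAR shRNA libraries 9 rows (12.7%) were higher and 25 (35.2%) lower than Control, beside 17.8% and 28.6% of all rows tested, and 6 of the 25 were at 0 in SLEAR shRNA-3. Leaving that library out, an alternative added after the data were seen, gave 20 rows (28.2%) above and 30 (42.3%) below Control in both others, beside 35.2% and 41% of all rows. The median log2 difference was -0.30 with all libraries, beside -0.11 over all rows tested, and -0.039 without SLEAR shRNA-3, beside -0.033. LAMP3, a lysosomal membrane protein induced by interferon, had 22.3, 25.7 and 20.1 RPM in libraries SLEAR shRNA-1, -2 and -3, while Control had 53.9 RPM, a log2 difference of -1.22 ± 0.32 (SE; adjusted p = 0.993). Those next in order of p were all above Control: NLRC5, an activator of class I major histocompatibility genes, at 41.6, 28.7 and 46.3 RPM against 18.4 RPM in Control. The second of 3 rows of PML, the scaffold of nuclear bodies, was at 5.25, 6.25 and 9.14 RPM, against 1.07 RPM in Control. The lower of 2 rows of SP110, another nuclear body protein, was at 52.6, 46.8 and 57.1 RPM, against 33.4 RPM in Control. Other rows of PML and SP110 did not all lie above Control. The higher row of SP110 was at 87.3, 73.8 and 105.7 RPM, against 100.5 RPM in Control, with only SLEAR shRNA-3 above. The highest row of PML was at 50.9, 47.8 and 58.6 RPM, against 35.9 RPM in Control. The lowest row of PML was at 3.12, 2.26 and 0 RPM, against 3.70 RPM in Control.

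Of the most abundant rows of that list, the peptide transporter TAP1 was at 311, 299.6 and 286 RPM in libraries SLEAR shRNA-1, -2 and -3 and 314 RPM in Control, and the secreted glycoprotein LGALS3BP was at 232, 255 and 295 RPM, against 235 RPM in Control. IL10RB, a receptor chain for interferon lambda, was at 251, 260.2 and 269.8 RPM, against 222 RPM in Control. B2M, the light chain of class I molecules, was at 282, 294 and 27.4 RPM, against 262 RPM in Control, so that SLEAR shRNA-3 alone was low. Per-length levels cannot be formed from 3'-end reads, and no level was compared between genes.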

How the data were processed

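Values are RPM as the authors deposited them. Per the submitters' processing notes, FastQC, Bowtie2, SAMtools and the build hg19 were used. How reads were assigned to rows, how shared reads were divided, whether strand was used and which filters were applied is not stated in any source used here. A gene and an antisense partner may therefore be mixed: in GENCODE 29 the last 200 bases of 3 of the 44 member rows (JAK1, XAF1 and the lower row of IFNAR2) overlap an exon of the other strand, and the 3' end of IRF9 lies within another annotated transcript.

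Where rows averaging 1 RPM or more held the same values throughout, 1 was kept with the symbols of all of them (177 of 16328 removed). Low values were multiples of a step taken as 1 read; 96.4% to 96.9% of values above 0 and under 20 RPM were whole within 0.05 reads, so the count test planned for whole reads was not run. limma 3.58.1 in R 4.3.3 was fitted to log2(RPM + 1) for rows that reached 1 RPM anywhere, with a threshold of 0.05. The code was also checked on simulated data, but the outcome is not given here and no result rests on it. The 3 SLEAR shRNA libraries supplied the spread.

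The members, role groups and lists were chosen with earlier results of these data known, as was the fit without SLEAR shRNA-3 at a mean log2 value of at least 4. All members are accounted for, with values for each row averaging at least 1 RPM and others by their range. From the wider list, values are given for the 4 rows highest by mean and the 4 smallest by p. The other rows of PML and SP110 are given beside them. Alternatives were pseudocounts of 0.1 and 5, other filters and scalings, limma-voom on estimated reads, summed rows, and leaving out each SLEAR shRNA library.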

Additional observations from a re-analysis of the deposited data

How the results depend on the processing

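The alternatives called 0 rows in each direction, and without SLEAR shRNA-3 an unadjusted p below 0.05 was reached by 775 higher and 893 lower rows. The exception was the fit without SLEAR shRNA-3 among rows averaging 4 or more on the log2 scale, with 345 higher and 352 lower; there the spread was pooled completely over rows, and MX2 was the one member called. The same rows with all libraries, an alternative chosen after the data were seen, gave 0 and 0. Leaving out 1 SLEAR shRNA library gave 11 to 15 member rows higher and 10 to 14 lower in both remaining libraries, beside 2772 to 4345 higher and 4314 to 5058 lower of all 12350 rows, since fewer libraries must then lie on one side. The minimum of 5 RPM left 6 lower. Under the trimmed-mean scaling 10 of 39 member rows were higher and 8 lower in all 3 libraries, beside 2293 and 3337 of 12423 rows. With columns scaled to their sums these were 8 and 11 of 38 member rows, beside 1902 and 3947 of 12350 rows. The median log2 difference of the members, 0.17 with all libraries beside -0.11 over all rows, lay between 0.089 and 0.19 with 1 library left out (-0.13 to -0.033 over all rows) and was 0.10 with rows summed. Of 280 values for the 34 member rows described in full, under alternatives that keep all libraries, 4 changed sign: with a pseudocount of 5, EIF2AK2 (0.039) and IRF7 (0.13), and by limma-voom, IRF7 (0.19) and IFIT5 (-0.053). The cause was not tested. With libraries left out in turn, sign changed for EIF2AK2 (-0.75 to 0.62), IRF7 (-0.71 to 0.98), IFI16 (-0.16 to 0.093), IFIT5 (-0.33 to 0.36), IFITM2 (-0.019 to 0.57), ISG15 (-0.10 to 0.45), the PARP9 rows (-0.30 to 0.76 and -0.019 to 0.67) and XAF1 (-0.44 to 0.14), in each case without SLEAR shRNA-3, and for IRF9 (-0.59 to 0.18) without SLEAR shRNA-2. No paired analysis was possible because there was 1 Control library for 3 SLEAR shRNA libraries. Rows near 1 RPM rest on few reads, and the part of depth in the zeros of SLEAR shRNA-3 was not tested.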
